A study of Sus scrofa with 21 samples.

Results

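Collagens, laminins and their partners of the basement membrane were examined in testis RNA of 21 boars. The members were chosen by name: every row of the count files whose Ensembl pig gene carries a collagen chain symbol (COL, number, A, number) or a laminin chain symbol (LAMA, LAMB or LAMC with a number), together with FN1, NID1, NID2, HSPG2, FBN1 and AGRN. This rule found 55 of the 25880 genes in the files, and 38 of them reached at least 1 CPM in at least 11 of the 21 libraries and were tested. CPM is the read count of a gene scaled to a common library total, here with TMM factors (trimmed mean of M-values) applied to the totals. It is not divided by gene length, so levels are compared between boars and not between genes.

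The libraries came from purebred Landrace (13) and Duroc (8) boars used for artificial insemination, with pieces of whole testis taken at slaughter and 1 library per boar. Sperm hyperactivity, the vigorous whip-like swimming that sperm show before fertilization, had been measured in fresh and stored ejaculates of the same boars. In Landrace, 4 boars with high (L5, L6, L7, L8) and 4 with low hyperactivity at day 0 (L1, L2, L3, L4), the day of ejaculation, were compared. A further comparison set 3 boars whose hyperactivity changed much during 96 h of liquid storage (L7, L13, L15, the high change boars) against 4 low change boars (L2, L9, L10, L12). L2 and L7 are in both comparisons. In Duroc, 5 libraries carry the label High (D1 to D5) and 3 the label Low (D6, D7, D9), which by the study's methods refers to day 0. The study's own listing of boars gives another group to nearly all of these Duroc names, so they are called by their labels here. Log2 fold changes between hyperactivity groups are high over low by the deposited labels, and their direction rests on those labels. For Landrace, the study lists the boars by name in the same groups as the labels. The up and down wording of its text runs against them. The text reports most day 0 genes as up-regulated in the high group, while most genes that passed here were lower there. The study's printed counts for DNLZ are lower in the high group, though the text calls DNLZ up-regulated there. Its printed counts for ITGAV are higher in the high group, as by the labels here (log2 fold change 0.75). Why its wording and counts differ was not settled here. With the groups turned, every sign between them would turn. No allele or treatment is given for any boar, and the boars' ages, which varied, are not given by group in the sources used here.

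Seminiferous tubules rest on a basement membrane, a thin sheet in which a laminin network and a collagen IV network are tied together by nidogens and the heparan sulphate proteoglycan perlecan. A laminin is a trimer of an alpha, a beta and a gamma chain, and a collagen is a triple helix of alpha chains. Sertoli cells inside the tubule and peritubular myoid cells around it both secrete parts of this sheet. The interstitium beyond it holds fibrils of collagens I, III and V, fibronectin and fibrillin, with fibril-associated collagens on the fibril surface.

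The count per library ran from 41358671 to 125576407, with a median of 58530621. In addition, 29.4% to 39% of the counted reads of a library were on no gene. At day 0 the high Landrace boars had 64052547 to 97059970 counts and the low boars 53644587 to 77217140. TMM factors were 0.846 to 1.01 in the high and 1.01 to 1.1 in the low boars, and the median count was 82926536 in the high and 67344798 in the low boars. Day 0 results without the TMM scaling are given below, and the part of the count totals themselves was not tested. Summed spermatid markers reached 6880 to 15000 CPM and summed Leydig cell markers 593 to 4550 CPM over the Landrace boars, so germ cell and Leydig cell genes were high in every library. L13, a high change boar, stood apart with the lowest spermatid sum (6880 CPM) and a Sertoli cell marker sum of 518 CPM, against 191 to 266 CPM in the other Landrace boars.

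Of the 55 members, all 5 collagen IV chains found passed the filter, as did 8 of 11 fibrillar collagens and 6 of 7 fibril-associated collagens. Among laminins, 3 of 4 alpha and 3 of 4 beta chains passed. NID1, NID2 and HSPG2 passed and AGRN did not, and FN1 and FBN1 both passed. Of the remaining collagens, 3 of 9 network, beaded and anchoring chains and 3 of 6 transmembrane and multiplexin chains passed. The 17 members below the filter were COL2A1, COL5A1, COL11A2, COL6A1, COL6A2, COL6A6, COL8A1, COL8A2, COL10A1, COL9A3, COL13A1, COL18A1, COL23A1, LAMA5, LAMB3, LAMC3 and AGRN. COL6A1 and COL6A2 encode chains that assemble with COL6A3, and they reached 1 CPM before TMM scaling in 1 library each while COL6A3 reached 1.64 to 6.73 CPM. COL9A3 had a single read in a single library. COL2A1, a cartilage collagen, reached 0.0824 to 1.24 CPM. Of the 61 symbols of the rule in the RefSeq table of Sscrofa11.1, 7 were matched to no row by name: COL4A1, LAMA2, COL7A1, COL9A2, COL19A1, COL20A1 and COL26A1. They were not analysed here, apart from COL7A1 as described at the end.

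The members were spread more widely between boars than genes in general. The standard deviation of log2 CPM had a median of 0.52 over the 38 members in Landrace and 0.51 in Duroc, against 0.34 and 0.32 over all 12835 genes tested. COL27A1, a fibrillar collagen of developing cartilage, had the widest spread in Landrace (1.35), followed by HSPG2 (1.27) and COL6A5 (1.22). In Landrace, COL6A5 ran from 0.822 CPM in L10 to 19 CPM in L9, and both boars belong to the low change group. LAMA4, a laminin alpha chain of vessels and interstitium, had the narrowest spread, 0.17 in Landrace and 0.13 in Duroc. Its levels stayed between 42.9 and 65.1 CPM in the 21 boars.

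The boars themselves stood at different heights. L3, a boar with low day 0 hyperactivity, had the highest level of 13 of the 38 members, with a median deviation of 0.70 on the log2 scale from the members' means over all boars, and 35 members were above their mean. D1 had the highest level of 9 members (median deviation 0.49). L8, with high day 0 hyperactivity, had the lowest level of 11 members (median deviation -0.51) and L5 of 5 members (-0.38). Duroc boars stood as low as L5: D7 and D6, labelled Low, had -0.38 and -0.37, and D2, labelled High, had -0.37. D6 had the lowest level of 5 members, while D9, also labelled Low, had a median deviation of 0.38. Over all genes tested, the medians of L3, D1, L8 and L5 were 0.05, 0.06, 0.00 and -0.04.

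**Figure D1:**
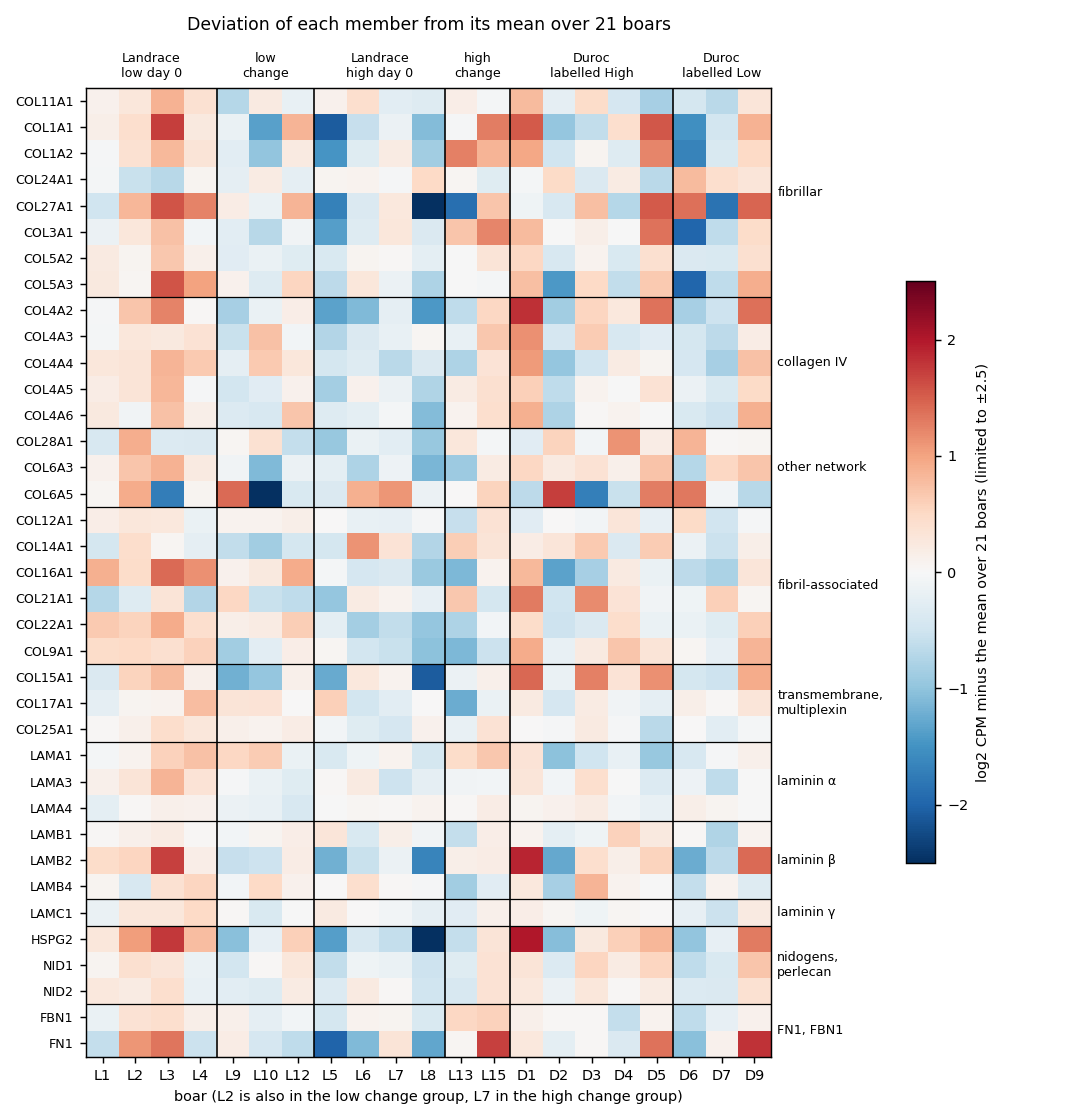
Heat map of 37 of the 38 tested members (rows, grouped by kind) in 21 boars (columns, grouped by label). Colour is log2 CPM minus the member's mean over 21 boars, limited to ±2.5. The columns of L3 and D1 are mostly red, those of L5, L8, D2, D6 and D7 mostly blue, and the row of LAMA4 is nearly white.

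The day 0 comparison in Landrace asked which genes differ in testis between boars whose fresh sperm were high or low in hyperactivity. Of the 38 members, 9 were called, that is, had a Benjamini-Hochberg adjusted p under 0.05 over 12835 genes in the quasi-likelihood test of edgeR, and all 9 were lower in the boars labelled high, a direction that the study's wording would turn. They were HSPG2, COL4A2, COL4A4, LAMB2, COL1A1, COL16A1, COL22A1, COL6A3 and COL9A1. The share of members called lower was 23.7%, where 15.4% of all genes tested were called lower, 4.47% higher and 19.9% in either direction. At an unadjusted p under 0.05 there were 20 members, 19 of them lower, against 41.2% of all genes. The median log2 fold change was -0.56 over the members and 0.04 over all genes tested, and 33 of 38 members were below 0. In 10 of the members (26.3%), all lower, the groups did not overlap, against 27.8% of all genes tested and 19.7% in that direction. For each of these 10 the two-sided exact permutation p was 0.0286, the smallest that 4 against 4 boars allow. Every gene whose groups do not overlap has this value, so it is no further test. In a piece of whole testis, fewer cells of a type and less RNA per cell cannot be told apart. Without the TMM scaling the median of all genes fell to -0.11, and 96% rather than 77.5% of the genes called were lower, while the members called were 10, all lower.

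Perlecan had the lowest fold change of all members. HSPG2 (ENSSSCG00000003514), on chromosome 6 of Sscrofa11.1 from 79849691 to 79958283, encodes its core protein. HSPG2 had 0.836, 1.68, 1.45 and 0.207 CPM in the high boars L5 to L8 and 2.69, 4.62, 7.64 and 3.8 CPM in the low boars L1 to L4. No high boar reached the lowest low boar. On the log2 scale the fold change was -2.15 with a standard error of 0.53 (edgeR adjusted p = 0.0239). The nidogens, which link laminin to collagen IV, did not pass. NID1 had 7.31 to 10.5 CPM in the high and 10 to 14.9 CPM in the low boars, with a log2 fold change of -0.50 (edgeR, adjusted p = 0.085). NID2 had a log2 fold change of -0.30 (edgeR, adjusted p = 0.256).

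Collagen IV, the network collagen of all basement membranes, had 2 of its 5 measured chains called, and all 5 had log2 fold changes below 0. COL4A2 (ENSSSCG00000009545; chromosome 11, 76996885 to 77161617) encodes the alpha 2 chain, found in nearly every basement membrane. COL4A2 had 0.573, 0.686, 1.29 and 0.536 CPM in L5 to L8 and 1.48, 2.46, 3.59 and 1.54 CPM in L1 to L4. The groups did not overlap, and L7 came closest to the low boars. Its log2 fold change was -1.53 (standard error 0.40, edgeR adjusted p = 0.0268). COL4A4 (ENSSSCG00000016244; chromosome 15, 128472228 to 128612302) encodes a chain of the collagen IV network of kidney and testis. COL4A4 had 3.47, 3.75, 2.95 and 3.66 CPM in the high boars and 5.71, 5.9, 8.45 and 7.37 CPM in the low boars, again apart. Its log2 fold change was -0.98 (standard error 0.21, edgeR adjusted p = 0.0213). Its neighbour and partner chain COL4A3, whose annotated span overlaps that of COL4A4 by 663 bp, had a log2 fold change of -0.49 (edgeR adjusted p = 0.107), with 3.75 to 6.44 CPM in the high boars and 5.99 to 8.06 CPM in the low boars. The counting of the authors kept reads of opposite strands apart. The X-linked chains COL4A5 and COL4A6, which lie 207898 bp apart, had -0.71 and -0.66 (edgeR adjusted p = 0.0663 and 0.129).

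Among the tested laminin chains, a single beta chain was called. LAMB2 (ENSSSCG00000011377; chromosome 13, 31738282 to 31750623) encodes laminin beta 2, a chain of kidney, muscle and vessel basement membranes. LAMB2 had 1.54, 2.43, 3.26 and 1.13 CPM in L5 to L8 and 4.98, 5.23, 11.8 and 4.02 CPM in L1 to L4. The groups did not overlap, and L3 stood far above the other low boars. Its log2 fold change was -1.61 (standard error 0.41, edgeR adjusted p = 0.025). The beta 1 chain LAMB1, which can take the same place in a laminin trimer, had 201 to 320 CPM in the high and 263 to 300 CPM in the low boars and a log2 fold change of -0.06, with an interval of 2 standard errors from -0.38 to 0.25. LAMC1, the gamma chain shared by most laminins (ENSSSCG00000015555; chromosome 9, 124283668 to 124405967), had 68.7 to 94.4 CPM in the high and 72 to 114 CPM in the low boars, and its log2 fold change was -0.24 with an interval from -0.57 to 0.09. LAMA4 had 0.03, with an interval from -0.22 to 0.28. LAMA1 and LAMA3, alpha chains of epithelial basement membranes, had -0.55 and -0.53 (edgeR adjusted p = 0.065 and 0.0994). The untested chains LAMB3, LAMC3 and LAMA5 had groups that did not overlap. LAMB3 had 0.317 to 0.839 CPM in the high and 1.22 to 1.71 CPM in the low boars. LAMC3 had 0.195 to 0.517 and 0.866 to 1.79 CPM, and LAMA5 0.0609 to 0.377 and 0.586 to 2.4 CPM.

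Of the 8 fibrillar collagens, COL1A1 passed. COL1A1 (ENSSSCG00000036135; chromosome 12, 26379087 to 26397180) encodes the more abundant chain of collagen I, the main fibril protein of connective tissue. COL1A1 had 0.377, 1.13, 1.53 and 0.779 CPM in L5 to L8 and 1.87, 2.26, 5.69 and 2 CPM in L1 to L4. The groups did not overlap, with L3 again far above the rest. Its log2 fold change was -1.61 (standard error 0.47, edgeR adjusted p = 0.0367). The other chain of collagen I, COL1A2 (ENSSSCG00000015326; chromosome 9, 74174484 to 74210407), had 5.15, 11.6, 16.5 and 7.82 CPM in the high and 14, 18.7, 25 and 17.8 CPM in the low boars. L7 lay inside the range of the low boars, and COL1A2 did not pass with a log2 fold change of -0.87 (standard error 0.32, edgeR adjusted p = 0.0676). Collagen III forms mixed fibrils with collagen I. Its gene COL3A1 (ENSSSCG00000016034; chromosome 15, 93556914 to 93595678) had 4.95, 10.3, 15.6 and 9.97 CPM in the high and 11.7, 15.7, 21.6 and 12.4 CPM in the low boars, and a log2 fold change of -0.57 (edgeR adjusted p = 0.174). COL24A1 had the highest log2 fold change of the members, 0.45 (edgeR adjusted p = 0.101). Of the tested members, only COL5A2, a chain of the collagen that starts fibrils, had groups that did not overlap without passing the test. It had 12.8 to 17.5 CPM in the high and 17.6 to 26.7 CPM in the low boars (log2 fold change -0.40, edgeR adjusted p = 0.114). Below the filter, and so untested, COL5A1, COL6A2, COL18A1, LAMA5, LAMB3, LAMC3 and AGRN did not overlap either, each lower in the high boars.

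Fibril-associated collagens, which sit on fibrils or at the border between fibrils and basement membranes, had 3 of 6 measured members called. COL16A1 (ENSSSCG00000003603; chromosome 6, 88177798 to 88243718) had the smallest p of all members. COL16A1 had 5.6, 4.35, 4.54 and 3.06 CPM in L5 to L8 and 10.9, 8.05, 15.7 and 12.9 CPM in L1 to L4. The groups lay well apart, and its log2 fold change was -1.42 (standard error 0.26, edgeR adjusted p = 0.0213). COL22A1 (ENSSSCG00000005938; chromosome 4, 4069045 to 4313198), a collagen of tissue junctions, had 3.01, 1.96, 2.34 and 1.83 CPM in the high and 5.64, 5.24, 6.86 and 4.8 CPM in the low boars. It too showed no overlap, with a log2 fold change of -1.29 (standard error 0.25, edgeR adjusted p = 0.0213). COL9A1 (ENSSSCG00000004274; chromosome 1, 50403355 to 50498356), known from cartilage, had 1.36, 0.951, 0.882 and 0.633 CPM in the high boars and 1.83, 1.86, 1.75 and 1.97 CPM in the low boars. The low boars were tightly grouped, and its log2 fold change was -0.94 (standard error 0.30, edgeR adjusted p = 0.0458). The other fibril-associated collagens did not pass. COL12A1 had a log2 fold change of -0.23 (interval of 2 standard errors -0.50 to 0.03), and COL14A1 and COL21A1 had 0.27 and 0.14 (edgeR adjusted p = 0.575 and 0.769).

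Among the other members, COL6A3 passed and fibronectin did not. COL6A3 (ENSSSCG00000027331; chromosome 15, 137011549 to 137103687) encodes a chain of collagen VI, whose beaded filaments connect basement membranes to the interstitium. COL6A3 had 3.08, 2.13, 3.34 and 1.64 CPM in L5 to L8 and 3.94, 5.92, 6.73 and 4.29 CPM in L1 to L4. The groups did not overlap, and its log2 fold change was -1.01 (standard error 0.30, edgeR adjusted p = 0.0375). FN1 (ENSSSCG00000016174; chromosome 15, 117658158 to 117737145) encodes fibronectin, a glycoprotein that cells use to attach to the matrix. FN1 had 0.672, 1.27, 3.49 and 1.11 CPM in the high and 1.83, 6, 7.08 and 1.9 CPM in the low boars, so that L7 exceeded L1 and L4. Its log2 fold change of -1.33 had a standard error of 0.56 (edgeR adjusted p = 0.0992). The study, by contrast, names FN1 among its differentially expressed genes at day 0. Here FN1 passed in 2 of 10 alternative fits and in 1 of 8 fits without a boar. FBN1, the microfibril protein fibrillin, had -0.34, and the multiplexin COL15A1 of vessel and muscle basement membranes had -0.79 (edgeR adjusted p = 0.189 and 0.187).

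**Figure D2:**
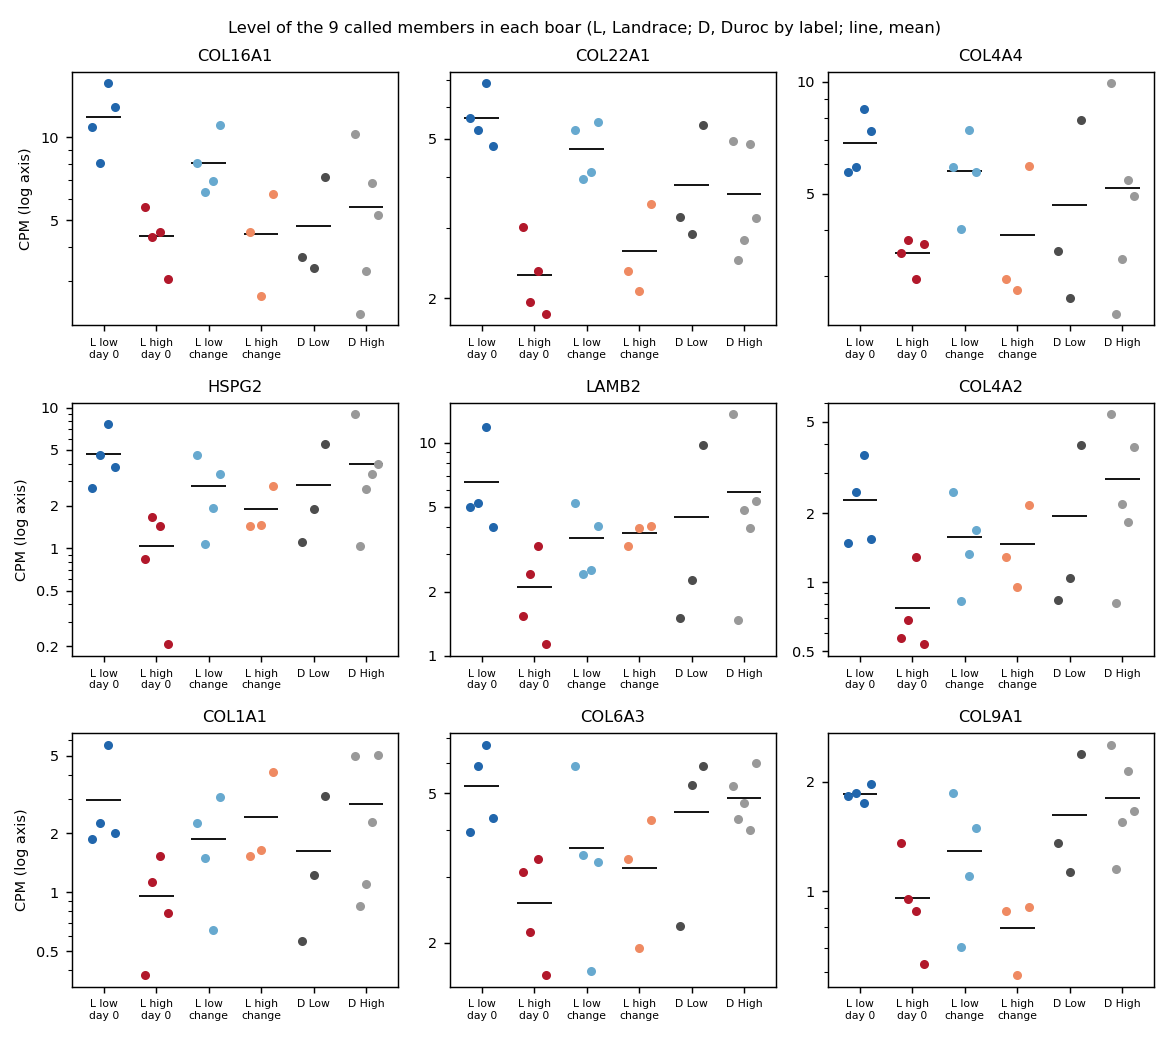
CPM on a log axis of the 9 members called in the Landrace day 0 comparison, with 1 point per boar and the group mean as a line. In each panel the red points (high day 0) lie below all blue points (low day 0), while the Duroc groups, and in most panels the change groups, overlap.

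The called members were mostly those with few reads. Of the 15 members with a mean under 5 CPM over the 21 boars, 7 (46.7%) were called lower, against 22.7% of all tested genes at that level. Of the 14 members from 5 to under 20 CPM, 2 (14.3%) were called lower, against 20.4% of genes. None of the 9 members at 20 CPM or more was called, against 9.51% of genes. Median log2 fold changes at these levels were -1.12, -0.55 and -0.23 in members and -0.42, -0.14 and 0.20 in all genes tested. So fold changes moved with level in the whole table as well, and the part of level in the members' values was not tested. These levels were set after the values had been seen.

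Within a boar, the proportion of reads between some pairs of members differed between the day 0 groups. The pairs were chains of the same fibril (COL1A1 and COL1A2), alternative chains of a trimer (LAMB2 and LAMB1) and parts of the same membrane (HSPG2 and LAMC1, NID1 and NID2). Such proportions do not depend on the scaling of the library. COL1A1 gave 7.32, 9.78, 9.29 and 9.97 reads per 100 reads of COL1A2 in L5 to L8 and 13.3, 12.1, 22.7 and 11.3 in L1 to L4, with no overlap. LAMB2 gave 0.481, 1.21, 1.14 and 0.465 reads per 100 of LAMB1 in the high boars and 1.89, 1.85, 3.94 and 1.52 in the low boars, also apart. HSPG2 gave 0.301 to 2.07 reads per 100 of LAMC1 in the high and 3.32 to 7.78 in the low boars. NID1 gave 45.8 to 56.5 reads per 100 of NID2 in the high and 50.3 to 65.8 in the low boars, which overlapped. In the Duroc libraries the proportion of COL1A1 to COL1A2 was 7.4 to 19.9 under the label High and 11.2 to 15.5 under Low, and that of LAMB2 to LAMB1 was 0.67 to 4.96 and 0.567 to 3.53. These proportions were chosen after the values had been seen and carry no test. Their levels cannot be set against each other, since the genes differ in length, and COL1A1 rests on 23 to 477 reads per library.

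**Figure D3:**
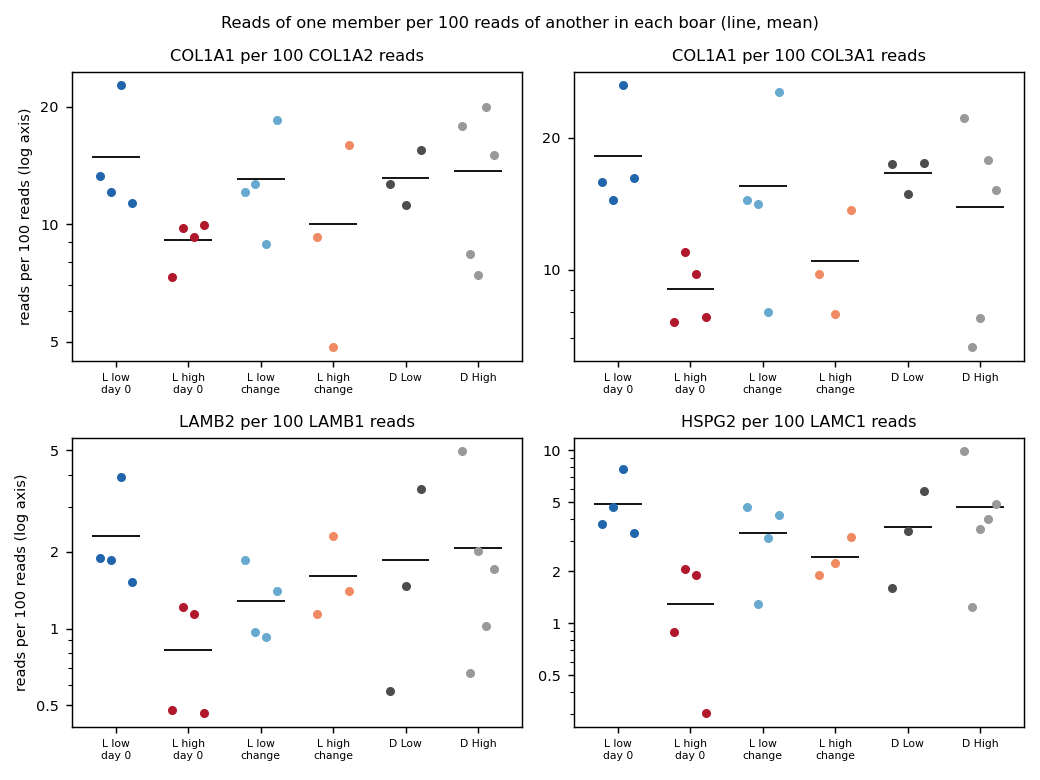
Reads of 1 member per 100 reads of another in each boar, on a log axis, with group means as lines. The 4 panels are COL1A1 with COL1A2, COL1A1 with COL3A1, LAMB2 with LAMB1 and HSPG2 with LAMC1. In each, the high day 0 boars lie below all low day 0 boars, and the other groups overlap. Pairs that overlap at day 0, such as NID1 and NID2, are not drawn.

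Genes that act on the matrix were counted beside the members. For scale here and in the marker lists below, 15.4% of all genes tested were called lower and 4.47% higher. Of 17 tested matrix receptors, 1 was called lower and none higher, with a median log2 fold change of -0.11. It was ITGA3, the alpha chain of a laminin-binding integrin, at -1.86 (standard error 0.38, edgeR adjusted p = 0.0213). Of 18 tested genes of collagen folding and cross-linking, 5 were called lower and none higher, with a median of -0.46. They were the lysyl hydroxylases PLOD1 and PLOD3, the prolyl hydroxylase subunit P4HB, the prolyl 3-hydroxylase P3H1 and the procollagen protease BMP1. PLOD3 had -1.0 (standard error 0.24), PLOD1 -1.13 (0.29) and BMP1 -1.23 (0.37), with edgeR adjusted p of 0.0224, 0.0265 and 0.0405. Of 8 matrix proteases and inhibitors, PLAT, tissue plasminogen activator, was called lower at -1.21 (standard error 0.35, edgeR adjusted p = 0.0364), and the median of the list was -0.31. None of 6 small matrix proteoglycans was called, and their median was -0.10.

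Markers of peritubular myoid cells, the smooth muscle-like cells that line the tubule, were examined beside the members. All 6 tested markers had log2 fold changes below 0 with a median of -1.20, and 3 were called lower: DES at -1.51, SMTN at -1.40 and MYH11 at -1.18 (edgeR adjusted p = 0.026, 0.0268 and 0.0396). The listed CNN1 was below the filter, at 0.183 to 1.43 CPM. The sum of the list was 32.4, 37.7, 66.9 and 18.2 CPM in L5 to L8 and 60, 98.8, 122 and 55.7 CPM in L1 to L4, where L7 exceeded L1 and L4. Of 5 tested endothelial markers, TIE1 was called lower at -1.30 (edgeR adjusted p = 0.0263), and the sums were 12.1 to 37.5 CPM in the high and 25.3 to 43.6 CPM in the low boars. Sertoli cell markers (0 of 8 called, median -0.10) summed to 191 to 266 CPM in the high and 201 to 250 CPM in the low boars, with AMH at 0 in all libraries. Leydig cell markers (0 of 6 called, median 0.33) summed to 593 to 4550 and 1750 to 2200 CPM. Spermatocyte markers had 1 of 7 called, higher, with a median of 0.47 and sums of 1430 to 2210 CPM in the high and 1090 to 1440 CPM in the low boars. Spermatid markers had 2 of 8 called lower and a median of 0.13, with sums of 11600 to 15000 and 9840 to 14100 CPM. No marker of spermatogonia (5 tested), macrophages (2) or fibroblasts (1) was called. The part of these cell types in the members' values was not tested.

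**Figure D4:**
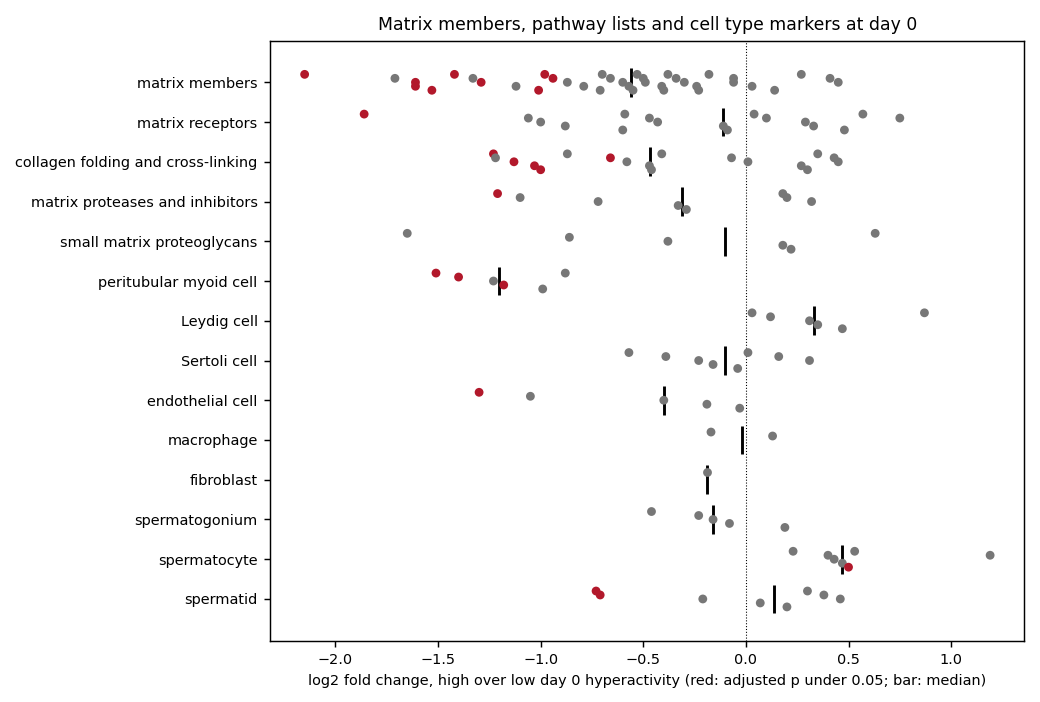
Log2 fold change, high over low day 0 hyperactivity in Landrace, of each tested gene (point) in the member list, the pathway lists and the cell type marker lists, with list medians as bars and adjusted p under 0.05 in red. The member median stands at -0.56, the myoid marker median at -1.20 and the spermatocyte marker median at 0.47.

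The call of the members at day 0 depended on the boars and the fit used. A fit of all 21 libraries with a shared spread called none (smallest adjusted p of a member 0.0623 by edgeR, 15 members at an unadjusted p under 0.05). Leaving out each boar in turn left 0 to 12 members called: 0 without L6 (smallest adjusted p of a member 0.0555), 3 without L3 and 4 without L8, all by the quasi-likelihood test of edgeR. In the whole table, 1 gene was called without L6, against 2548 with all 8 boars. Across these 8 fits the log2 fold change of HSPG2 stayed between -2.45 and -1.80 and that of COL16A1 between -1.61 and -1.27, and each passed in 6 fits, while COL9A1 passed in 1.

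For the change in hyperactivity over 96 h, no member passed (0 of 38, against 0.00779% of all genes tested, by the quasi-likelihood test of edgeR). At an unadjusted p under 0.05 there were 5 members, against 19.8% of all genes. The median log2 fold change was 0.00 over the members and 0.00 over all genes, and the groups did not overlap in 3 members (7.89%, against 16.2% of genes), all lower in the high boars (8.69% of genes). COL3A1 had 15.6, 20.8 and 30.1 CPM in the high boars L7, L13 and L15 and 15.7, 10.7, 7.98 and 12.1 CPM in the low boars L2, L9, L10 and L12. L7 fell just below L2, and the log2 fold change of COL3A1 was 0.94 (standard error 0.27, edgeR adjusted p = 0.241). COL1A2 had 16.5, 34.2 and 25.9 CPM in the high and 18.7, 11.9, 7.17 and 16.7 CPM in the low boars, with 0.91 (standard error 0.32, adjusted p = 0.241). COL14A1, a fibril-associated collagen of skin and tendon, had 0.71, and COL16A1 and COL22A1 had -0.85 and -0.84 with groups that did not overlap (edgeR adjusted p = 0.241 for each), as in the transmembrane collagen COL17A1 at -0.69 (0.257). The other genes named by rule had log2 fold changes of 0.39 (COL1A1), -0.11 (COL4A2), 0.09 (LAMB2), -0.06 (LAMC1), 0.66 (FN1), -0.10 (NID1) and -0.53 (HSPG2). Leaving out each of the 7 boars in turn moved them widely, to between -0.22 and 0.72 for COL1A1, -0.03 and 1.14 for FN1, -0.49 and 0.19 for COL4A2 and -0.91 and -0.16 for HSPG2. COL3A1 and COL1A2 stayed between 0.65 and 1.13 and between 0.66 and 1.14.

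Beside the fibrillar collagens in this comparison, the small proteoglycans that coat fibrils had a median log2 fold change of 0.97, and 4 of the 6 had an unadjusted p under 0.05 in edgeR's test (PRELP 1.36, LUM 1.24, OGN 1.09 and DCN 0.85). None of the 6 passed the adjusted threshold. The sums of that list were 95.1 to 211 CPM in the high and 57 to 106 CPM in the low change boars. Summed myoid markers were 63 to 66.9 and 45.4 to 98.8 CPM, and summed endothelial markers 37.5 to 46.5 and 23.6 to 41.7 CPM. Leydig cell markers had a median log2 fold change of 0.59 with all 6 above 0, and spermatid markers one of -0.43 with 6 of 8 below 0 (PRM1 -1.05, TNP2 -0.81). None of these markers passed. Leydig sums were 1490 to 2540 CPM in the high and 609 to 2200 CPM in the low boars, and spermatid sums 6880 to 12200 and 11200 to 14400 CPM. L13 had the highest proteoglycan sum beside its low spermatid sum. The part of these cell types in the members' values was not tested. Boars L2 and L7 enter here and at day 0, so the comparisons are not independent.

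In the Duroc libraries labelled High against those labelled Low, no member passed (0 of 38, where 0% of all genes tested passed the quasi-likelihood test of edgeR). At an unadjusted p under 0.05 there was 1 member, COL24A1 at -0.55, against 1.22% of all genes. The median log2 fold change was 0.17 over the members and 0.04 over all genes tested. In no member did the labelled groups stay apart (0 of 38, against 1.39% of genes). HSPG2 had 9, 1.04, 2.63, 3.35 and 3.98 CPM in D1 to D5 and 1.11, 1.91 and 5.49 CPM in D6, D7 and D9. COL4A2 had 5.39, 0.81, 2.19, 1.82 and 3.88 CPM and 0.836, 1.04 and 3.94 CPM in the same order. In both genes the groups overlapped almost wholly. Intervals of 2 standard errors were wide, -0.81 to 1.79 for HSPG2, -0.75 to 1.83 for COL4A2, -1.02 to 1.77 for LAMB2 and -0.59 to 2.17 for COL1A1. For the remaining genes named by rule the log2 fold changes were 0.73 (COL1A2), 0.96 (COL3A1), 0.18 (LAMC1), -0.39 (FN1) and 0.27 (NID1).

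Whether the day 0 difference itself differed between the breeds was tested by an interaction term over the 8 Landrace and 8 Duroc boars with day 0 labels. No member and no gene (0% of those tested) passed the quasi-likelihood test of edgeR, and the smallest adjusted p of a member was 0.331. At an unadjusted p under 0.05 there were 14 members of 38, against 15% of all genes. The median interaction, Landrace minus Duroc log2 fold change, was -0.71 over the members and 0.01 over all genes, and 34 members were below 0. HSPG2 had -2.63 (standard error 0.94), COL1A1 -2.39 (0.92), COL4A2 -2.06 (0.82) and LAMB2 -1.99 (0.90), each with an edgeR adjusted p of 0.331. COL24A1 had 1.03 (standard error 0.33). These values rest on the direction of the Duroc labels. With High and Low turned in Duroc, a setting added after the data were seen, no gene passed, 3 members against 19.8% of genes had an unadjusted p under 0.05 by edgeR, the median was -0.37 over the members and 0.03 over all genes, and 31 members were below 0. HSPG2 then had -1.66, LAMB2 -1.24, COL1A1 -0.82 and COL24A1 -0.14.

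Between the breeds no member passed either (0 of 38, against 2.77% of all genes tested, by the quasi-likelihood test of edgeR), and in no member did the breeds stay apart (0.28% of genes). The likelihood ratio test and DESeq2 called no member in any comparison but that of Landrace at day 0. The median log2 fold change, Duroc over Landrace, was 0.06 over the members and -0.01 over all genes. At an unadjusted p under 0.05 there were 4 members, against 12.2% of genes. LAMA1, the laminin alpha 1 chain, ran from 24.6 CPM in D2 to 63.2 CPM in D1 and from 36.9 CPM in L8 to 82.6 CPM in L4. The breeds overlapped, and its log2 fold change was -0.51 (standard error 0.19, edgeR adjusted p = 0.176), with an interval from -0.88 to -0.14. COL15A1 had 0.80 (standard error 0.31), COL21A1 0.60 and COL28A1 0.48, with edgeR adjusted p of 0.233, 0.304 and 0.347. The 9 members called at day 0 had log2 fold changes between breeds from -0.52 (COL16A1) to 0.75 (COL4A2). For chains with tight levels the intervals were narrow, -0.25 to 0.27 for LAMB1, -0.29 to 0.15 for LAMC1 and -0.09 to 0.22 for LAMA4.

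COL1A1, COL1A2 and COL3A1 had medians of 1.75, 13.2 and 13.5 CPM in Duroc and 1.65, 16.5 and 12.1 CPM in Landrace. For LAMC1, NID1 and FN1 the medians were 82.5, 13.5 and 2.93 CPM in Duroc and 81, 10.5 and 2.06 CPM in Landrace. Each of these 6 genes overlapped broadly between the breeds, and none had an absolute log2 fold change above 0.29.

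**Figure D5:**
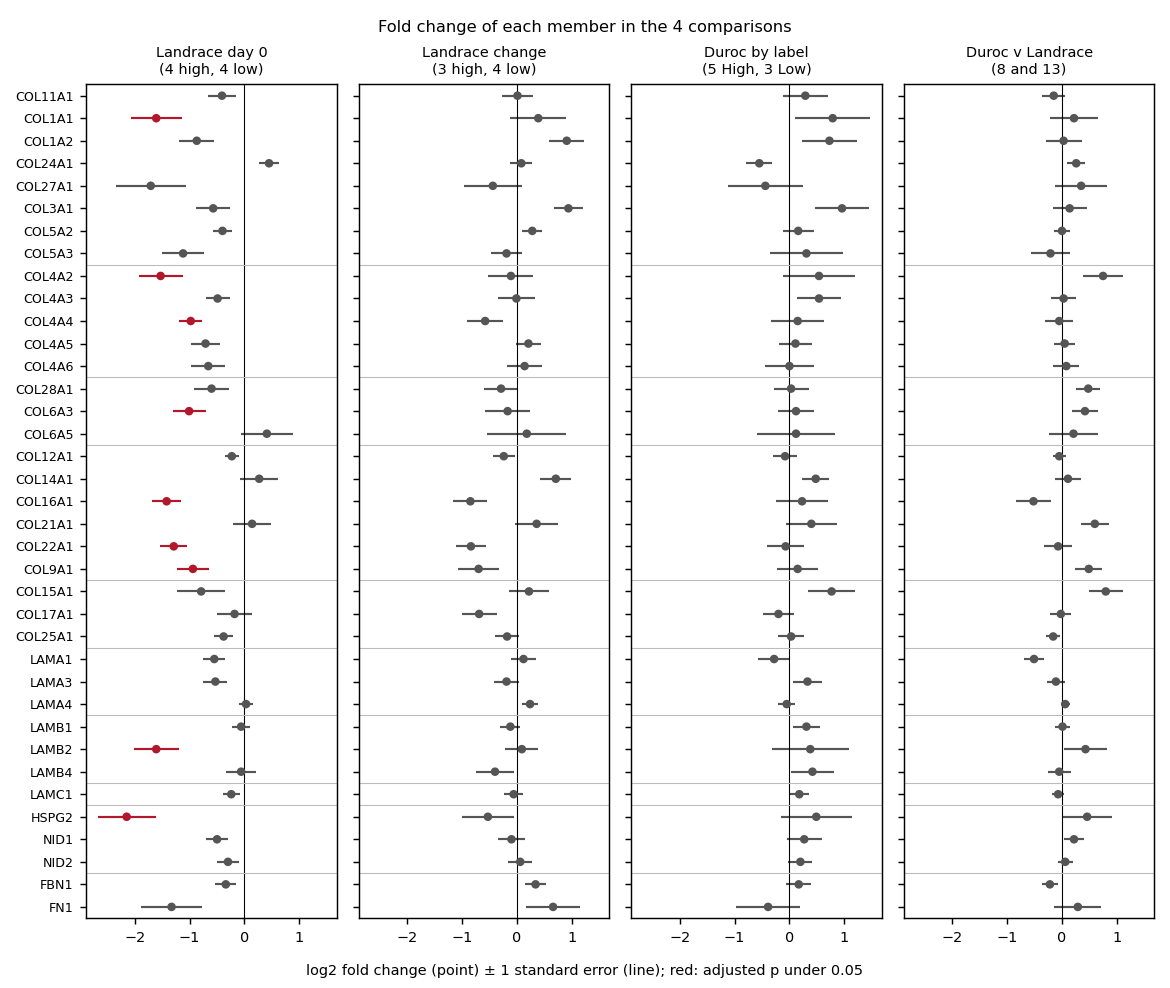
Log2 fold change (point) with 1 standard error on each side (line) of 37 of the 38 members in the 4 comparisons, with members whose adjusted p is under 0.05 in red. The 9 red points are all in the Landrace day 0 panel and all left of 0; in the other panels the points spread on both sides of 0.

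Chains that assemble with each other were compared across boars within each breed, 5 pairs and 10 relations in all. COL1A1 and COL1A2 varied together, with Pearson's r of 0.85 and Spearman's rho of 0.85 in 13 Landrace boars (permutation test, adjusted p = 0.0027 and 0.0046) and 0.91 and 0.93 in 8 Duroc boars (exact permutation test, adjusted p = 0.0042 and 0.00763). Without the 2 boars farthest from the median of COL1A1, r was 0.77 and 0.81. COL4A5 and COL4A6 had r of 0.80 and rho of 0.79 in Landrace (permutation test, adjusted p = 0.0042 and 0.00763) and 0.92 and 0.90 in Duroc (exact permutation test, adjusted p = 0.00483 and 0.00912), and 0.74 and 0.85 without the 2 farthest boars. COL4A3 and COL4A4 had r of 0.71 and rho of 0.76 in Landrace (permutation test, adjusted p = 0.014 and 0.00767), and 0.68 without the 2 farthest boars. In Duroc they had 0.64 and 0.64 (exact permutation test, adjusted p = 0.128 and 0.139), and r was 0.83 without the 2 farthest boars.

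The laminin pairs were looser in Landrace, while in Duroc their r was near the 0.64 of COL4A3 and COL4A4. LAMB1 and LAMC1 had r of 0.45 in Landrace (rho 0.48) and 0.70 in Duroc (rho 0.60), with permutation adjusted p of 0.133 and 0.139 in Landrace and exact permutation adjusted p of 0.105 and 0.147 in Duroc. In Duroc r fell to 0.21 without D4 and D7, so that value rests on those boars. LAMB2 and LAMC1 had r of 0.36 and rho of 0.35 in Landrace (permutation adjusted p = 0.226 and 0.24) and 0.61 and 0.60 in Duroc (exact permutation adjusted p = 0.128 and 0.147). In Landrace r was 0.05 without L3 and L8, and 0.09 with group means removed. In Duroc r was 0.78 without D1 and D2, and 0.59 with group means removed. With group means removed, COL1A1 and COL1A2 kept r of 0.81 in Landrace and 0.91 in Duroc. For scale, the median r over all 703 pairs of members was 0.38 in Landrace and 0.41 in Duroc, with no test.

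Several members lie next to each other on the Sscrofa11.1 chromosomes. COL3A1 and COL5A2 are 16177 bp apart on chromosome 15, and LAMB1 and LAMB4 are 30599 bp apart on chromosome 9. At day 0, COL3A1 and COL5A2 had log2 fold changes of -0.57 and -0.40, and LAMB1 and LAMB4 had -0.06 each. COL4A2 overlaps the span of COL4A1, not analysed here, by 525 bp.

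COL7A1, the anchoring fibril collagen, is named for the row ENSSSCG00000011355 only in the study's own list of called genes, so it entered no count above. That row had 0.584 to 1.33 CPM in the high and 2 to 5.38 CPM in the low day 0 boars. It had 0.439 to 3.7 CPM in Duroc. These values are given without a test, because the row was named for having passed one.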

How the data were processed

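Stranded mRNA libraries were read from a single end. The authors used Trimmomatic for trimming, STAR for alignment against the Sscrofa11.1 assembly, and HTSeq for strand-aware counting on the Ensembl annotation. They deposited raw counts of reads per gene, 1 file per boar, without normalization. Rows that name no gene were left out of library sizes.

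Symbols came from an Ensembl identifier table that named 14857 rows, and positions from the RefSeq annotation of Sscrofa11.1, by symbol. The 12835 genes that reached 1 CPM in 11 or more of the 21 libraries were kept and scaled by TMM. Each comparison was fitted on its own boars with the quasi-likelihood test of edgeR 4.0.16 in R 4.3.3, with Benjamini-Hochberg adjustment over all genes and a threshold of 0.05. The authors' methods give a likelihood ratio test, run here as an alternative beside DESeq2 1.42.0, other scalings, filters and sample sets, and fits without each boar. Standard errors are the log2 fold change over the square root of its F statistic. Log2 CPM used a prior count of 2. Correlations used 1e+05 permutations in Landrace and all pairings in Duroc.

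Members and lists were chosen with earlier results of these data known. Named are members that passed, up to 12 per comparison, COL1A1, COL1A2, COL3A1, COL4A1, COL4A2, LAMA2, LAMB2, LAMC1, FN1, NID1 and HSPG2, and up to 3 genes per list by p, with other members where a group is described. On data simulated for the Landrace day 0 comparison with 12835 genes, 200 of them changed, the test called 76 of the genes changed by 1 on the log2 scale, 100 of those changed by 2, and 12 unchanged genes. Within groups, 34 pairs of libraries differed by a chi-square per degree of freedom of 45.9 to 288, so none is a duplicate. No label names pairs, batches or dates, and p-values measure the spread between boars. No sequence is printed, since none was available here. The values of 1 tested member are not reported here, though it is in the counts and medians.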

Additional observations from a re-analysis of the deposited data

Results flagged for a closer look

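In 6 of 190 groups of 4, 5 or 8 boars, 5 groups for each member, a single boar stood apart from the others of its group by Dixon's criterion at 95%, where chance gives about 9.5. Boar L3 stood apart among the low day 0 Landrace boars in LAMB2, at 11.8 CPM against 4.02 to 5.23 CPM in the other boars, and in COL1A1, at 5.69 CPM against 1.87 to 2.26 CPM. Both genes are called at day 0, and without L3 the call was lost for 6 of the 9 members. In COL28A1, a beaded filament collagen of nerve, L2 had 44.4 CPM against 17.8 to 18.6 CPM in the same group. LAMB4 was at 2.34 CPM in L6 against 1.7 to 1.79 CPM in the other high day 0 boars. Among the Duroc libraries labelled High, FBN1 was at 11.9 CPM in D4 against 18.2 to 19.6 CPM, and FN1 was at 7.19 CPM in D5 against 2.16 to 3.35 CPM.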

How the results depend on the processing

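No paired analysis was possible because the boar numbers only name animals and tie no boar of a group to a boar of another. At day 0 in Landrace, 9 members were called. The likelihood ratio test called 14 and DESeq2 15, all lower and both including the 9. A fit of all 21 libraries with a shared spread called 0 (edgeR, smallest adjusted p of a member 0.0623, 15 members at an unadjusted p under 0.05, and 1 gene in the whole table). Leaving out each boar gave 0 to 12, with 0 without L6 (edgeR, 19 at an unadjusted p under 0.05), 3 without L3 and 4 without L8. The remaining alternatives (relative log expression, library totals, no mitochondrially encoded genes, other filters, a robust fit, and no L2 and L7) gave 8 to 11. The cause of these shifts was not tested beyond the fewer boars or shared spread that each setting holds. The median log2 fold change of the members stayed between -0.71 and -0.47 in all these fits. In the other comparisons and the interaction, every alternative and every fit without a boar called 0 members, the turned Duroc labels included. Members with few reads, such as HSPG2 with 17 reads in its lowest library, are the least precise, and the low label groups hold 3 or 4 boars each.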
